A study of Mus musculus with 18 samples.

Results

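The nuclear genes whose products build the mitochondrial respiratory chain and the ATP synthase were followed through 6 groups of cultured mouse cumulus cells. Members were the genes of the array annotation whose symbol begins with the family roots of complex I (Ndufa, Ndufb, Ndufc, Ndufs, Ndufv), complex II (Sdha to Sdhd), complex III (Uqcr), complex IV (Cox4i, Cox5, Cox6, Cox7, Cox8) or complex V (Atp5), read from probe sets annotated with a single symbol. Each gene was represented by its probe set of highest mean over the 18 arrays. The rule found 90 genes among the 18193 genes of the array, measured by 179 probe sets, and 88 of them passed the filter on low values and were tested. They comprised 6 catalytic core genes, 28 accessory genes and 8 assembly factor genes of complex I, 4 genes of complex II, 8 of complex III, 19 of complex IV and 17 of complex V. The assembly factors enter only because their names begin with Ndufaf. Ndufa4 and Ndufa4l2, named for complex I, are counted here with complex IV, Ndufa4 because its product is found there and Ndufa4l2 only as its paralog. Cox7b2 and Ndufb4 did not pass the filter, and 10 further probe sets that carried several symbols, among them all those of Ndufa11 and Ndufs6, were left out.

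Cumulus cells form the granulosa cell coat of an oocyte in a growing follicle and are coupled to it by gap junctions. The samples were cumulus cells of female mice, from complexes of antral follicles that were cultured intact (labelled COC), as shells from which the oocyte had been taken out (labelled OOX, here oocyte-free complexes), or as such shells together with oocytes (here cocultures), each without or with estrogen (labelled E2). There were 3 arrays in each of the 6 groups. Estrogen dose, culture time, mouse strain and age are not given in the sources used here. Whether the 3 samples of a group stem from different animals or different cultures is not given, and p-values therefore measure only how far these samples spread, which could be technical spread.

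The respiratory chain passes electrons from NADH (complex I) and succinate (complex II) through coenzyme Q, complex III and cytochrome c to complex IV, which reduces oxygen. The proton gradient built on the way drives ATP synthase, complex V. Nearly all of the subunits are encoded in the nucleus, a few in mitochondrial DNA, and some nuclear subunits exist as alternative isoforms that differ between tissues or with oxygen supply. In the follicle, cumulus cells take up glucose, supply the oocyte with pyruvate and respond to paracrine factors that the oocyte secretes, and oocyte factors are known to support cumulus glycolysis.

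Values are log2 RMA signals, so a difference of 1 is a doubling, and every difference below was estimated with limma from one model of all 6 groups and adjusted over the 12246 genes tested. A gene was called at an adjusted p under 0.05. Array series, as read from the array names, were 3 in number and unevenly spread, and all 3 oocyte-free arrays without estrogen lay outside the series that held 13 of the 18 arrays. No series holds both oocyte-free and intact arrays without estrogen, so for that comparison no value within a series can be given. The oocyte-free array of replicate 3 without estrogen had the narrowest spread of values (interquartile range 2.54, beside 2.70 to 3.06 elsewhere) and resembled its own group least. The oocyte-free array of replicate 1 with estrogen carries a title that names estrogen and other labels that do not, and it was grouped by its title. Of 13 oocyte markers, 9 did not pass the filter. Over all 18 arrays Gdf9, an oocyte growth factor gene, lay between 6.61 and 7.19, Dppa3 between 5.44 and 6.76 and Figla between 5.41 and 6.21. None of these was called between oocyte-free and intact complexes. Bcl2l10, by contrast, lay between 3.78 and 5.25 in oocyte-free complexes and between 7.93 and 8.99 in all other groups. The part of oocyte RNA in the results was not tested. In bulk samples such as these, fewer cells of a type and less RNA per cell cannot be told apart.

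**Figure D1:**
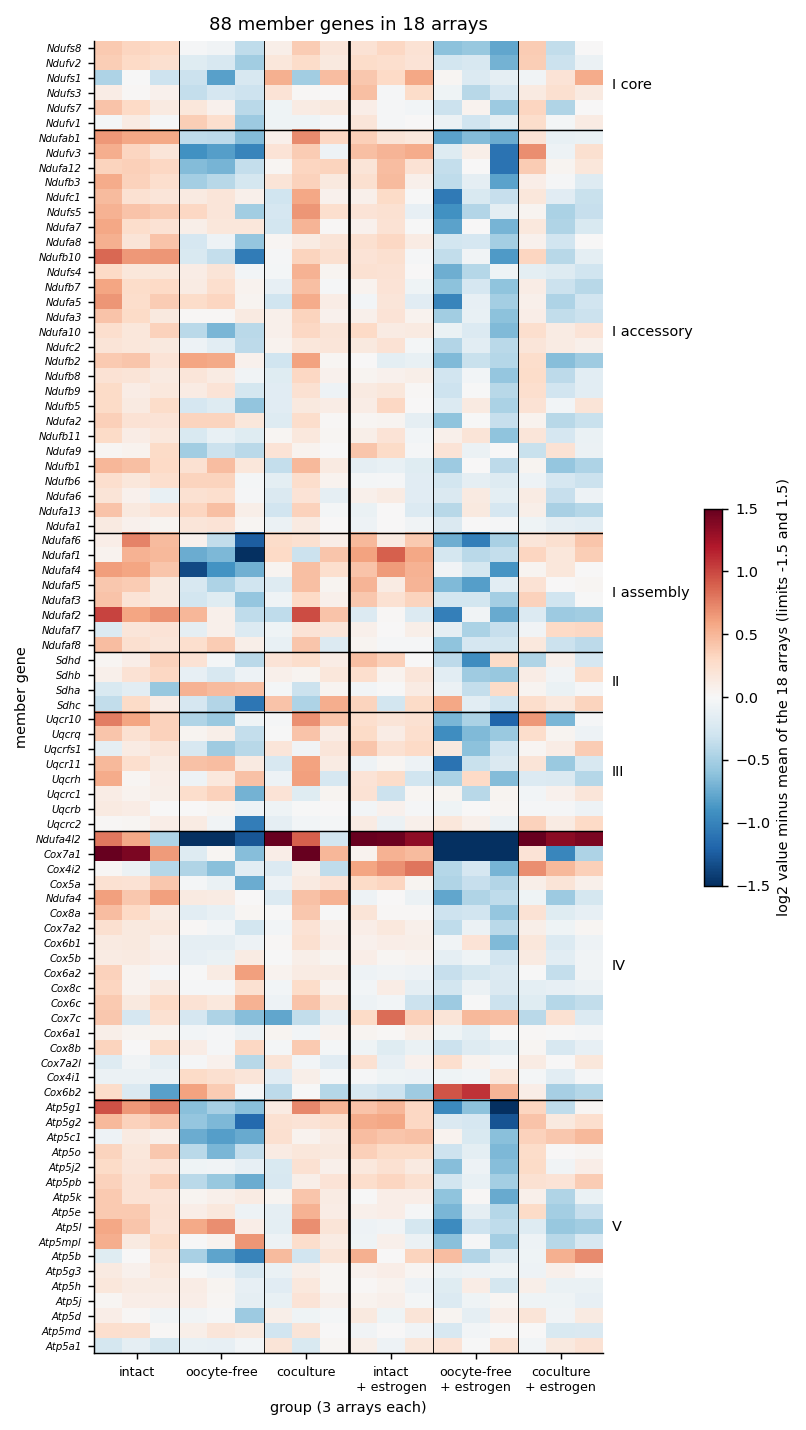
Log2 RMA value of each of the 88 tested member genes (rows, grouped by complex) on each of the 18 arrays (columns, 3 arrays in each group, in order of replicate), as the difference from the gene's mean over all arrays, with colours ending at -1.5 and 1.5. Ndufa4l2 and Cox7a1 stand out in complex IV, and the oocyte-free columns are the bluest in both estrogen states.

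Many respiratory chain genes were lower in cumulus cells cultured without an oocyte, with or without estrogen, and hardly any were higher. Without estrogen, 30 of the 88 members fell and 2 rose when oocyte-free complexes were compared with intact ones, while 20.7% of all genes tested fell and 18% rose. The members' median difference was -0.25, against 0.01 over all genes. With estrogen, 36 members fell and 1 rose, beside 17.3% and 12.9% of all genes, and the members' median was -0.46 against -0.05. Of the members called, 25 were shared by these comparisons, all in the same direction, which is 78.1% of the first list and 67.6% of the second. The same overlap over all genes is not given. The groups compared have no arrays in common, but both comparisons use 1 estimate of each gene's spread, made from all 18 arrays. Without the oocyte-free array of narrow spread and the array with conflicting labels, 24 members fell and 3 rose without estrogen, and 32 fell and 1 rose with estrogen. With array series as a term in the model, 19 fell and 1 rose without estrogen. That term rests on few arrays. Beside the oocyte-free arrays without estrogen, the smaller series hold only 1 coculture array without estrogen and 1 oocyte-free array with it. Within the largest series, which holds 2 oocyte-free and 3 intact arrays with estrogen, 81 of the 88 members were lower in the oocyte-free arrays. The members' median difference there was -0.39, and the count over all genes within the series is not given.

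**Figure D2:**
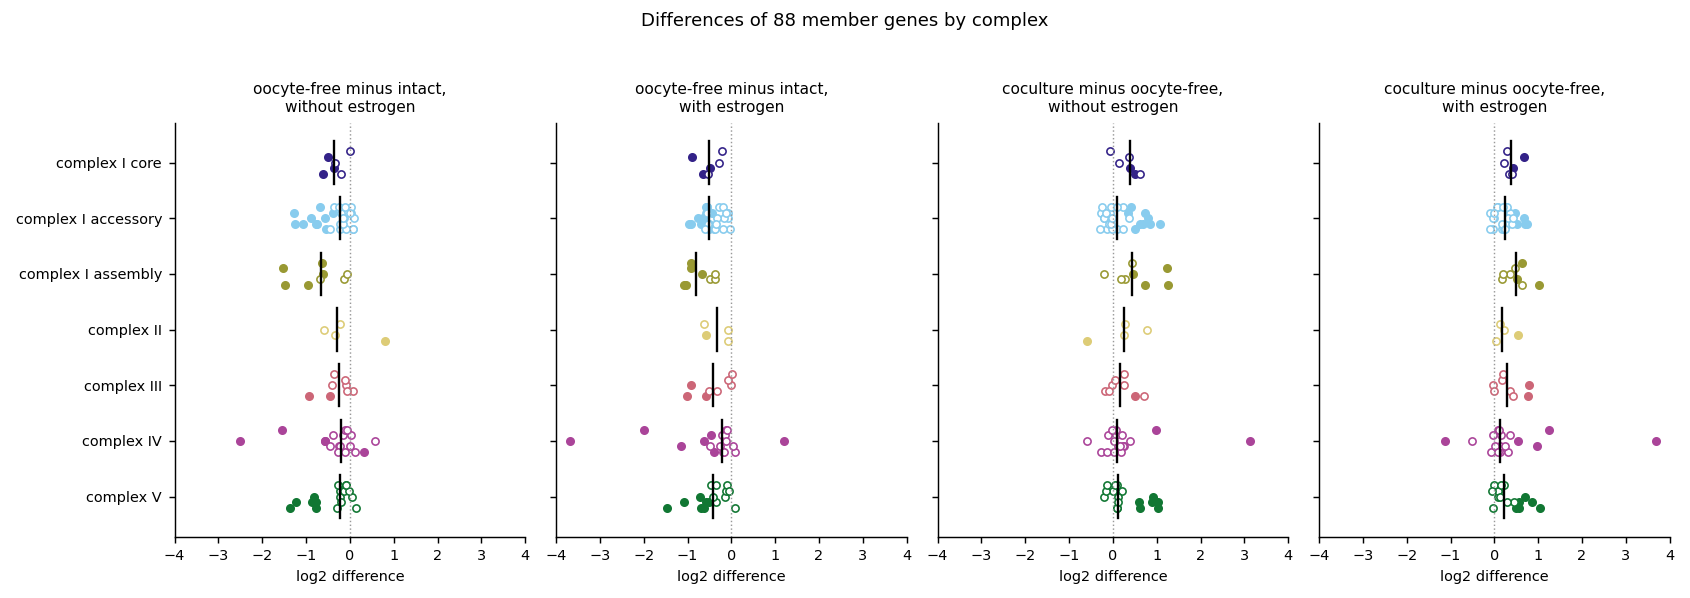
Log2 difference of each of the 88 tested members (points) between groups of 3 arrays, by complex, for oocyte-free minus intact complexes and for cocultures minus oocyte-free complexes, without and with estrogen. Filled points passed an adjusted p of 0.05, open points did not, and the black bar is the median of the complex; Ndufa4l2, at -3.68 and 3.69 with estrogen, lies farthest out.

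In the catalytic core of complex I, 3 of the 6 genes fell without estrogen and 3 with it (50% in both, beside 20.7% and 17.3% of all genes). Ndufs8, which carries iron-sulfur clusters near the quinone site, fell by 0.49 (SE 0.17, adjusted p = 0.0248) without estrogen and by 0.90 (SE 0.17, adjusted p = 0.000426) with estrogen. Ndufv2, a subunit of the NADH-oxidising arm, fell by 0.62 and 0.65. Ndufs3, a core subunit of the arm that reaches into the matrix, fell by 0.37 and 0.48. Ndufv1, which binds NADH, did not pass the test, with differences of 0.00 and -0.23, and neither did Ndufs1 (-0.20 and -0.53) nor Ndufs7 (-0.35 and -0.28).

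Among the 27 accessory genes of complex I tested, 10 fell without estrogen (37%) and 11 with it (40.7%), beside 20.7% and 17.3% of all genes. None rose, beside 18% and 12.9% of all genes. Ndufab1, the mitochondrial acyl carrier protein, which also serves fatty acid and lipoate synthesis, read 11.14, 11.07 and 11.05 in intact complexes, 10.11, 10.09 and 9.84 in oocyte-free complexes and 10.56, 11.20 and 10.80 in cocultures without estrogen. All oocyte-free arrays lay below all others, and the fall of 1.07 (SE 0.16, 2.10-fold, adjusted p = 3.45e-05) was accompanied by one of 0.97 (SE 0.16, adjusted p = 0.000129) with estrogen. A second probe set of the gene (mean 8.81) differed by -0.70 and -0.87, while dimmer sets differed by 0.29 and 0.05 (mean 5.71) and by 0.96 and 0.90 (mean 3.36). Ndufv3 read 11.54, 11.32 and 11.18 in intact and 10.09, 10.17 and 10.00 in oocyte-free complexes without estrogen, with no overlap. It fell by 1.26 (SE 0.24, adjusted p = 0.000529) without and by 0.91 (SE 0.24, adjusted p = 0.00833) with estrogen. With array series as a term its difference without estrogen was -0.83 (adjusted p = 0.0773) and did not pass. Ndufb10 fell by 1.27 (SE 0.23, adjusted p = 0.000325) without estrogen, and its difference with estrogen was -0.57 (adjusted p = 0.076), which did not pass. Ndufa12 (-0.90 and -0.77) and Ndufb3 (-0.78 and -0.70) were called in both states. At the other end, Ndufa1, Ndufa6, Ndufa13 and Ndufb6 differed by no more than 0.13 in either direction and were not called.

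The complex I assembly factors are not part of the finished enzyme but build it. Of the 8 genes, 5 fell without estrogen and 5 with it (62.5% in both, beside 20.7% and 17.3% of all genes). The medians of the 8 genes were -0.67 and -0.80. Ndufaf4 read 9.91, 9.88 and 9.70 in intact complexes without estrogen, 7.93, 8.39 and 8.56 in oocyte-free complexes, and 9.32, 9.73 and 9.54 in cocultures. Every oocyte-free array lay below all 6 others of that state, and the gene fell by 1.54 (SE 0.20, 2.90-fold, adjusted p = 9.09e-06). Ndufaf1 fell by 1.47 (SE 0.27, adjusted p = 0.000294) without and by 1.03 (SE 0.27, adjusted p = 0.0067) with estrogen. Ndufaf6 fell by 0.95 and 1.09, Ndufaf5 by 0.65 and 0.93, and Ndufaf3 by 0.61 and 0.67. Ndufaf2, Ndufaf7 and Ndufaf8 were not called in either state.

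Complex II, which is also the succinate dehydrogenase of the citric acid cycle, has 4 genes. Its flavoprotein gene Sdha was 1 of the 2 members that rose on oocyte removal without estrogen. It read 9.81, 9.88 and 9.46 in intact complexes, 10.55, 10.51 and 10.48 in oocyte-free complexes and 10.00, 9.71 and 10.07 in cocultures, a rise of 0.80 (SE 0.16, 1.74-fold, adjusted p = 0.000861) with no overlap. With estrogen the corresponding difference was -0.08. A second probe set of Sdha, with a mean of 9.36, differed by -0.16 and -0.11, and over the mean of the probe sets the rise was 0.24 (adjusted p = 0.135), so the probe sets disagree. Sdhb, the iron-sulfur subunit, fell by 0.58 (SE 0.14, adjusted p = 0.00387) with estrogen, with 12.28, 12.08 and 12.21 in intact and 11.87, 11.50 and 11.46 in oocyte-free complexes, and its difference without estrogen was -0.35. The membrane anchor genes Sdhc (-0.60 and -0.07) and Sdhd (-0.23 and -0.62) did not pass in either state.

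Of the 8 genes of complex III, 2 fell without estrogen (25%, near the 20.7% of all genes) and 3 with it (37.5%, beside 17.3%). Uqcr10, another small accessory subunit, read 8.67, 8.62 and 8.65 in intact and 7.74, 7.95 and 7.23 in oocyte-free complexes with estrogen, and fell by 1.01 (SE 0.27, adjusted p = 0.00903), against 0.92 (SE 0.27, adjusted p = 0.012) without estrogen. Without the oocyte-free array of replicate 3 with estrogen, its difference was -0.80 (adjusted p = 0.053). Uqcrfs1, the Rieske iron-sulfur protein, fell by 0.45 and 0.57. Uqcrq, a small accessory subunit, fell by 0.93 (SE 0.16, adjusted p = 0.00023) with estrogen, and its difference without estrogen was -0.41 (adjusted p = 0.0532). The test of the difference between the states gave an adjusted p of 0.281. The core protein genes Uqcrc1 (-0.11 and -0.09) and Uqcrc2 (-0.37 and 0.02) were not called.

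Complex IV, whose 18 tested genes include several tissue-restricted or oxygen-dependent isoforms, had 4 falls (22.2%, near the 20.7% of all genes) and 1 rise without estrogen, and 6 falls (33.3%, beside 17.3%) and 1 rise with it. Ndufa4l2, the alternative form of Ndufa4 and a known target of hypoxia-inducible factor, read 8.86, 8.64 and 7.60 in intact complexes, 5.38, 5.43 and 6.79 in oocyte-free complexes and 10.24, 8.97 and 7.79 in cocultures without estrogen. With estrogen it read 9.90, 9.54 and 9.41, then 5.89, 6.16 and 5.76, then 9.97, 9.42 and 9.48 in the same order. In both states every oocyte-free array lay below every array with an oocyte, and the spread within groups was wider without estrogen. Ndufa4l2 fell by 2.50 (SE 0.48, 5.66-fold, adjusted p = 0.000458) without and by 3.68 (SE 0.48, 12.8-fold, adjusted p = 1.27e-05) with estrogen. Leaving out any single array gave values from -2.96 to -2.25 and from -3.79 to -3.54. Its constitutive counterpart Ndufa4 differed by -0.46 (adjusted p = 0.0544) and -0.48 (adjusted p = 0.0516).

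Cox7a1, the form of subunit VIIa typical of heart and skeletal muscle, read 8.10, 7.74 and 6.97 in intact, 6.13, 6.36 and 5.69 in oocyte-free and 6.43, 7.85 and 6.82 in coculture arrays without estrogen. With estrogen the values were 6.38, 6.85 and 6.80, then 4.75, 4.76 and 4.52, then 6.53, 5.35 and 5.87. The oocyte-free arrays were lowest in each state, and with estrogen they were the lowest of all 18. It fell by 1.54 (SE 0.35, 2.91-fold, adjusted p = 0.00186) without and by 2.00 (SE 0.35, 4-fold, adjusted p = 0.00026) with estrogen. The ubiquitous form Cox7a2 differed by -0.28 without estrogen and fell by 0.40 (SE 0.13, adjusted p = 0.026) with it. That call was lost on centring the arrays (adjusted p = 0.12), in the largest array series alone (adjusted p = 0.121) and on leaving out, with estrogen, any intact array or replicate 1 or 3 of the oocyte-free arrays (adjusted p up to 0.0971).

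Cox4i2, the form of subunit IV linked to low oxygen, read 6.77, 6.86 and 6.98 in intact, 5.74, 5.92 and 5.48 in oocyte-free and 6.87, 6.66 and 6.53 in coculture arrays with estrogen. Without estrogen its values overlapped, at 6.19, 6.08 and 5.74 in intact, 5.72, 5.54 and 6.01 in oocyte-free and 5.97, 6.26 and 5.79 in coculture arrays. It fell by 1.16 (SE 0.17, 2.23-fold, adjusted p = 6.53e-05) on removal with estrogen, against a difference of -0.25 without. The test of the difference between these changes gave -0.91 (SE 0.25, adjusted p = 0.0535). Cox4i1, the ubiquitous form, rose by 0.32 (SE 0.12, adjusted p = 0.0385) without estrogen, and its values did not overlap. That call was lost on leaving out any intact array without estrogen, replicate 1 or 2 of the oocyte-free arrays without estrogen, replicate 1 or 3 of the intact arrays with estrogen or replicate 3 of the cocultures with estrogen, with adjusted p between 0.0302 and 0.0951 over all 18 arrays left out. With array series as a term the difference was 0.11 (adjusted p = 0.644).

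Cox6b2, best known from testis, moved opposite to Ndufa4l2 and Cox7a1. It read 6.31, 6.24 and 6.02 in intact and 7.49, 7.64 and 7.06 in oocyte-free complexes with estrogen, and returned to 6.65, 6.06 and 6.12 in cocultures, so that the oocyte-free arrays stood above all others. The rise on removal was 1.21 (SE 0.25, 2.31-fold, adjusted p = 0.00125), and without estrogen the difference was 0.57 (adjusted p = 0.0815). Cox5b, Cox6a1, Cox6b1 and Cox7a2l differed by -0.25 to 0.04 and were not called, while Cox5a fell by 0.58 and 0.63 and Cox8a by 0.47 with estrogen. The call of Cox8a was lost over the mean of its probe sets (-0.31, adjusted p = 0.113), on centring (adjusted p = 0.121) and on leaving out, with estrogen, any intact array or the oocyte-free array of replicate 3 (adjusted p up to 0.127). Cox7c is represented by a dim probe set with a mean of 6.08, and its fall of 0.58 without estrogen (adjusted p = 0.0449) came with overlapping arrays.

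**Figure D3:**
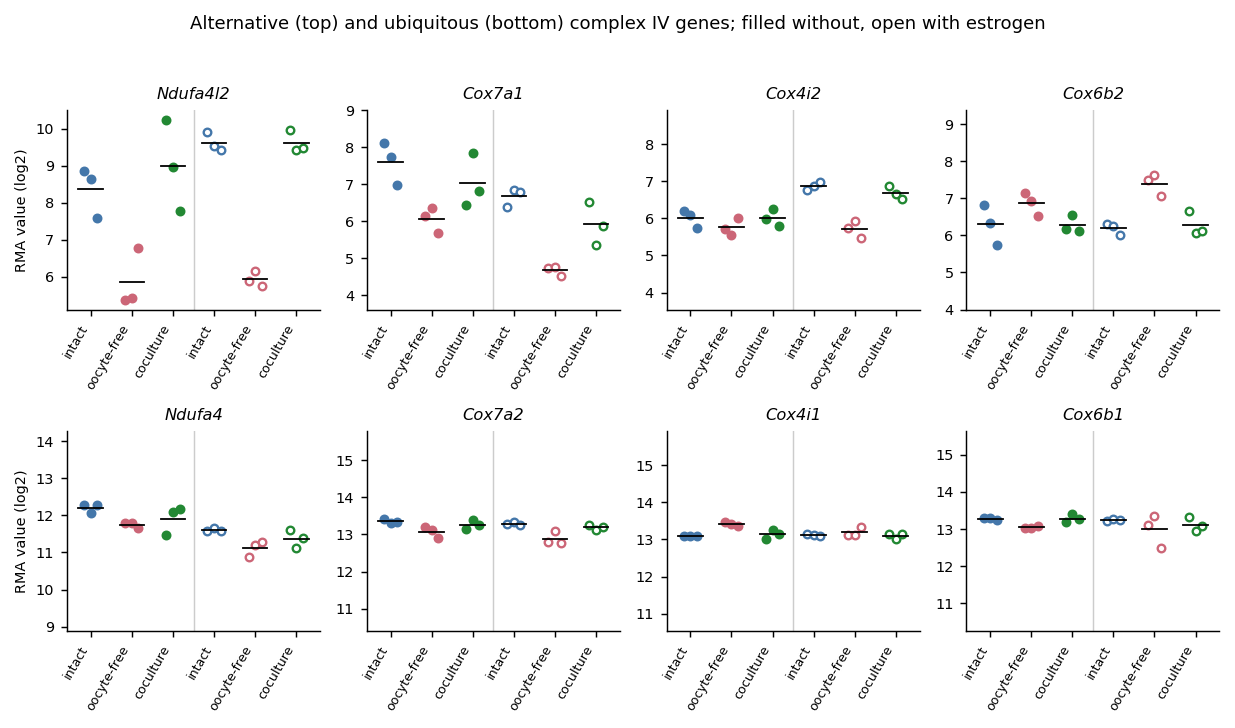
Log2 RMA values of 4 alternative complex IV genes (top) and their ubiquitous counterparts (bottom) on each array (points), in intact, oocyte-free and coculture groups, filled without and open with estrogen; bars are group means and all panels span the same number of log2 units. Oocyte-free arrays are lowest for Ndufa4l2 and Cox7a1 in both states and highest for Cox6b2 with estrogen, while the values in the lower panels lie close together. The genes of the lower panels are the brighter ones, and the part of brightness was not tested.

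The change of each alternative gene minus that of its counterpart was measured within arrays. For Ndufa4l2 minus Ndufa4 it was -2.04 without and -3.20 with estrogen, for Cox7a1 minus Cox7a2 it was -1.26 and -1.60, for Cox4i2 minus Cox4i1 it was -0.57 and -1.23, and for Cox6b2 minus Cox6b1 it was 0.81 and 1.46. The other complex IV pairs measured differed less, with 0.22 and -0.08 for Cox6a2 minus Cox6a1 and 0.27 and 0.3 for Cox8c minus Cox8a. The groups did not overlap in these differences, except for Cox4i2 and Cox6b2 without estrogen, Cox8c with estrogen and Cox6a2 in both states. With 3 arrays against 3, the exact two-sided permutation test cannot give a p below 0.1, which each of the non-overlapping pairs reached. Over the 72 such comparisons made, the adjusted p was 0.212. Mean values over the 18 arrays were 8.07 for Ndufa4l2, 6.33 for Cox7a1, 6.17 for Cox4i2 and 6.55 for Cox6b2. Their counterparts were brighter, at 11.66 for Ndufa4, 13.18 for Cox7a2, 13.17 for Cox4i1 and 13.16 for Cox6b1. Members with a mean of 12 or more differed less, and the part of brightness in these pairs was not tested.

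In complex V, 6 of 17 genes fell without estrogen (35.3%) and 7 with it (41.2%), beside 20.7% and 17.3% of all genes. Of the 3 genes for the c subunit, 2 were called in both states and 1 in neither. Atp5g1, Atp5g2 and Atp5g3 encode the same mature c subunit, whose ring turns with the passage of protons, behind different import peptides. Atp5g1 read 10.83, 10.52 and 10.64 in intact, 9.24, 9.37 and 9.25 in oocyte-free and 9.99, 10.59 and 10.38 in coculture arrays without estrogen, and 10.30, 10.37 and 10.18, then 8.92, 9.26 and 8.29, then 10.19, 9.49 and 9.90 with estrogen. In both states no oocyte-free array overlapped another group. It fell by 1.38 (SE 0.22, 2.60-fold, adjusted p = 9.44e-05) and by 1.46 (SE 0.22, 2.75-fold, adjusted p = 6.93e-05).

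Atp5g2 read 10.86, 10.72 and 10.79 in intact, 9.80, 9.70 and 9.21 in oocyte-free and 10.61, 10.58 and 10.62 in coculture arrays without estrogen. It fell by 1.22 (SE 0.23, 2.33-fold, adjusted p = 0.000357) and, with estrogen, by 1.07 (SE 0.23, adjusted p = 0.00144), again without overlap. With array series as a term the difference of Atp5g2 without estrogen was -0.68 (adjusted p = 0.094) and did not pass. Within the largest array series, the differences with estrogen were -1.19 for Atp5g1 and -0.72 for Atp5g2. Atp5g3 read 13.44, 13.37 and 13.46 in intact, 13.30, 13.23 and 13.07 in oocyte-free and 13.21, 13.39 and 13.34 in coculture arrays, and its differences on removal, -0.22 (SE 0.11, adjusted p = 0.136) and -0.14 (SE 0.11, adjusted p = 0.397), did not pass. Measured within arrays, the change of Atp5g1 minus that of Atp5g3 was -1.15 without and -1.32 with estrogen, and that of Atp5g2 minus Atp5g3 was -1 and -0.93. None of these 4 differences overlapped between groups (exact permutation p = 0.1, the smallest possible, and 0.212 adjusted over the 72 comparisons). The Atp5g3 probe set has a mean of 13.31, in the range where members differed less, and the part of brightness was not tested.

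Because these genes encode the same mature protein and were not called alike, the 250 bases before each start are shown, from RefSeq on GRCm38.p6, read 5′ to 3′ on the strand of the gene. Capitals mark the letters found by a search of both strands for motifs of factors that are known from other work to act on nuclear mitochondrial genes or under low oxygen. The lines give Atp5g1 at chr11:96075632-96075881, Atp5g2 at chr15:102671048-102671297 and Atp5g3 at chr2:73911327-73911576, all on the minus strand.
Atp5g1: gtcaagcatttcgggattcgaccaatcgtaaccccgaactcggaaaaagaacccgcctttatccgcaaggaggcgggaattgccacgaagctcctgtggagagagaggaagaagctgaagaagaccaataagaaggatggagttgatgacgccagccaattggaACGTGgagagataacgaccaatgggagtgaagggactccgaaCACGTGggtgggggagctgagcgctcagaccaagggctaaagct
Atp5g2: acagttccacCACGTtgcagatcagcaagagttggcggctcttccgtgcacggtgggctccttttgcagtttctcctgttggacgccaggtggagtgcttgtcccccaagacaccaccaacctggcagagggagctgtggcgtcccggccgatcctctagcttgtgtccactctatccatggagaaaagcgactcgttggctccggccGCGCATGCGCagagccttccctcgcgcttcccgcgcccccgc
Atp5g3: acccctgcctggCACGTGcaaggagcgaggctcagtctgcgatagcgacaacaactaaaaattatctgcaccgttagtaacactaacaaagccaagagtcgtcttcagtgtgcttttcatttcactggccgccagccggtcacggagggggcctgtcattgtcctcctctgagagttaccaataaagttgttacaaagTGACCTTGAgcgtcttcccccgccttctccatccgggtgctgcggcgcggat
The core site of NRF-1, the half-site GCGCA followed by its reverse complement, lies in the Atp5g2 window at bases -42 to -33 from the start. The estrogen-related receptor element TCAAGGTCA lies in the Atp5g3 window, on the opposite strand, at -52 to -44. Neither was found in the Atp5g1 window, which holds the core of the hypoxia-inducible factor site, ACGTG, at -86 to -82 and, on both strands, within CACGTG ending at -39. Each of the 3 windows holds ACGTG at least once, and where it lies within CACGTG it overlaps the E-box letters.

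These matches describe letters and not binding, and whether a motif goes with the changes was not tested. Promoters of 74 of the 90 members were in the RefSeq table, and motifs were sought in 250 bases before the start on both strands. The NRF-1 core was in 4 of them (5.41%, in Atp5g2, Atp5k, Cox6a1 and Ndufaf4), against 0.781% of all 27025 promoters and 1.59% of those of the 9897 tested genes. The ETS site CCGGAAG was in 13 (17.6%, against 7.05% and 13.3%). TCAAGGTCA was in 1 member (1.35%, against 0.366% and 0.253%), ACGTG in 16 (21.6%, against 16.6% and 21.7%), and the YY1 site AAGATGGCG in 0, beside 0.607% of all promoters. The estrogen response element, GGTCA and its reverse complement around any 3 bases, was in 0 members, beside 0.0629% of all promoters. Among all 88 members tested, 25 were called in the same direction on removal in both states, among them Atp5g1, which lacks the NRF-1 core. Of the genes with the NRF-1 core, Atp5g2 and Ndufaf4 fell on removal in both states, Atp5k fell by 0.51 (adjusted p = 0.0429) with estrogen, a call lost on leaving out any of 9 of the 18 arrays (replicate 3 of every group but the oocyte-free one without estrogen, replicates 1 and 2 of the intact arrays with estrogen, replicate 1 of the oocyte-free arrays with estrogen and replicate 2 of the intact arrays without, adjusted p up to 0.202), and Cox6a1, at -0.10 and -0.12, was not called.

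The remaining genes of complex V called on removal without estrogen belong to the catalytic head or the stalk. Atp5pb, subunit b of the peripheral stalk, read 11.34, 11.21 and 11.35 in intact and 10.59, 10.43 and 10.25 in oocyte-free complexes without estrogen and fell by 0.88 (SE 0.14, adjusted p = 0.000125), and by 0.58 (SE 0.14, adjusted p = 0.00535) with estrogen. Atp5o, which joins stalk and head, fell by 0.78 and 0.69. Atp5c1, the gamma subunit of the central stalk, read 11.75, 11.96 and 11.90 in intact and 11.08, 11.00 and 11.07 in oocyte-free complexes without estrogen, with no overlap, and fell by 0.82 (SE 0.15, adjusted p = 0.000277) and 0.71 (SE 0.15, adjusted p = 0.00129). A dimmer probe set of Atp5c1, with a mean of 6.71, differed by 1.67 and 1.32 in the opposite direction. The catalytic beta subunit gene Atp5b fell by 0.77 (SE 0.26, adjusted p = 0.0239) without estrogen, and Atp5j2, of the membrane part, by 0.62 (SE 0.16, adjusted p = 0.00674) with estrogen. Atp5a1 (0.13 and 0.08), Atp5h (-0.13 and -0.11) and Atp5j (-0.08 and -0.11) were not called.

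**Figure D4:**
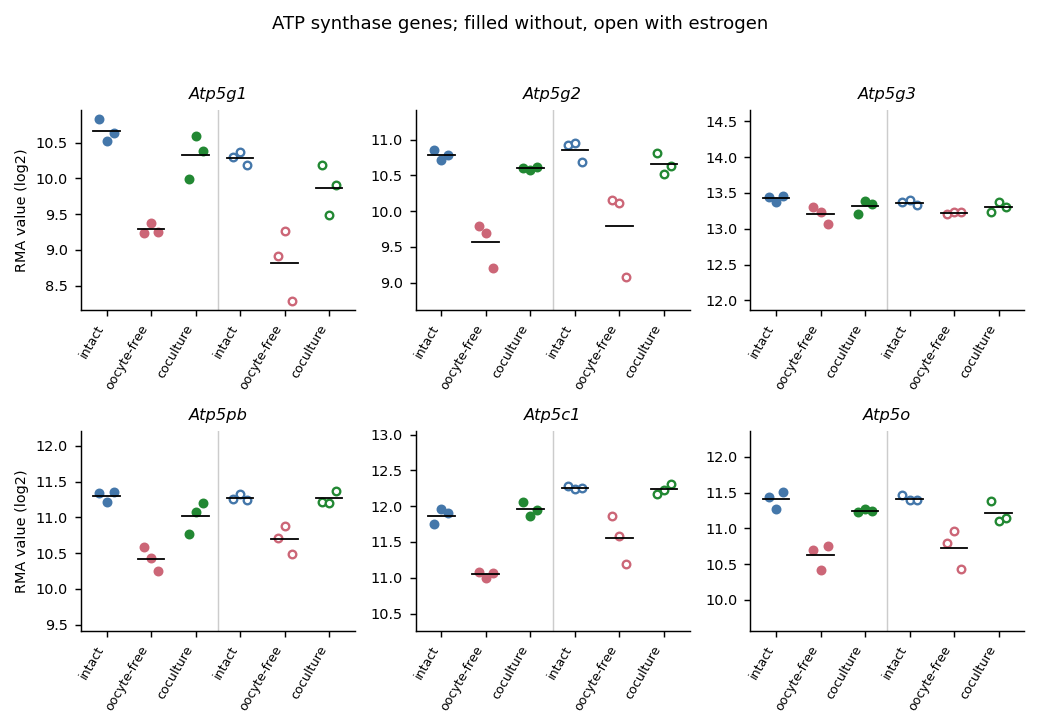
Log2 RMA values of 6 complex V genes on each array (points) in intact, oocyte-free and coculture groups, filled without and open with estrogen; bars are group means and all panels span the same number of log2 units. Oocyte-free arrays lie below the intact arrays of their state in every panel, by 1.38 and 1.46 for Atp5g1 and by 0.22 and 0.14, which did not pass the test, for Atp5g3.

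Oocytes added to oocyte-free complexes were followed by higher values. Without estrogen 24 members rose and 1 fell when cocultures were compared with oocyte-free complexes, beside 19.8% and 13.4% of all genes; the median difference was 0.18 over the members and 0.02 over all genes. With each array centred on its median, which takes out a shift of 0.11 between these groups, 16 rose and 3 fell, and without the coculture array of replicate 3 the number called was 16, which included 15 rises. With estrogen 23 rose and 1 fell, beside 14.2% and 10.4%, with medians of 0.24 and 0.03. The number called was 14 without the coculture array of replicate 1 with estrogen, 15 without the oocyte-free array of replicate 3 with estrogen, and 11 within the largest array series. By complex, the rises without and with estrogen numbered 2 and 2 of 6 genes in the complex I core (33.3% in both). They numbered 9 and 5 of 27 accessory genes (33.3% and 18.5%) and 4 and 3 of 8 assembly factors (50% and 37.5%). Complex II had 0 and 1 of 4 (0% and 25%), and complex III 1 and 2 of 8 (12.5% and 25%). Complex IV had 2 and 4 of 18 (11.1% and 22.2%), and complex V 6 and 6 of 17 (35.3% in both). Without estrogen the shares in complexes II, III and IV lay below the 19.8% of all genes. Without the oocyte-free array of narrow spread and the array with conflicting labels, 18 rose and 3 fell without estrogen, and 24 rose and 1 fell with it. Ndufa4l2 rose by 3.13 (SE 0.48, 8.77-fold, adjusted p = 6.64e-05) and 3.69 (SE 0.48, 12.9-fold, adjusted p = 1.64e-05), Atp5g1 by 1.03 and 1.04, and Atp5g2 by 1.03 and 0.87. Over the mean of its probe sets, of which the others have means of 5.41 and 2.64, the rise of Atp5g2 with estrogen was 0.27 (adjusted p = 0.157). Cox4i2 rose by 0.97 (SE 0.17, adjusted p = 0.000454) and Cox6b2 fell by 1.12 (SE 0.25, adjusted p = 0.00291) with estrogen. Sdha fell by 0.59 (SE 0.16, adjusted p = 0.0101) without estrogen, and Sdhb rose by 0.53 (SE 0.14, adjusted p = 0.00936) with it, though not without the coculture array of replicate 3 with estrogen (adjusted p = 0.0561). Cox7a1 rose by 0.97 (SE 0.35, adjusted p = 0.0388) and 1.24 (SE 0.35, adjusted p = 0.0139). Its call without estrogen was lost on leaving out the coculture array of replicate 2 (0.56, adjusted p = 0.216) or 3 (adjusted p = 0.0544) or the oocyte-free array of replicate 1 (adjusted p = 0.067) or 3 (adjusted p = 0.129), and that with estrogen on leaving out the coculture array of replicate 1 (0.93, adjusted p = 0.0855).

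Comparisons of removal and addition within an estrogen state share the oocyte-free arrays, so only pairs across states set separate arrays against each other. Even these pairs share the estimate of each gene's spread. Of the 32 members called on removal without estrogen, 18 were called in the opposite direction on addition with estrogen, which is 56.2% of the first list and 75% of the 24 in the second. Of the 37 called on removal with estrogen, 21 were called in the opposite direction on addition without estrogen, 56.8% and 84% of the lists. For these overlaps across states the share over all genes is not given. Members called in all 4 comparisons numbered 14, or 15.9% of those tested, no more than the 16.2% of all genes tested: Atp5c1, Atp5g1, Atp5g2, Atp5o, Atp5pb, Cox7a1, Ndufa10, Ndufa12, Ndufa4l2, Ndufab1, Ndufaf6, Ndufc2, Ndufs3 and Ndufv3. Within the array series that holds 1 coculture and 1 oocyte-free array without estrogen, the latter being the array of narrow spread, 80 of the 88 members were higher in the coculture array, with a median difference of 0.47. On the oocyte-free array the median was 11.2 over the members and 7.31 over all genes tested, and on the coculture array 11.64 and 7.4. The part of the narrow spread in this count was not tested, and the same count over all genes is not given.

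No member was called between cocultures and intact complexes, by limma, either without estrogen or with it, beside 0.00817% and 0% of all genes, and 2 and 4 members had an unadjusted p under 0.05. The median differences were -0.13 and -0.15, against 0.03 and -0.01 over all genes. In cocultures 74 and 76 of the 88 members were lower, beside 5441 and 6376 of the 12246 genes tested. The largest differences were 0.63 for Ndufa4l2 without estrogen and -0.76 for Cox7a1 with estrogen.

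Other mitochondrial genes were read from lists. Of 76 mitochondrial ribosomal protein genes, which translate the subunits encoded in mitochondrial DNA, 42 fell on removal without estrogen (55.3%) and 36 with it (47.4%). None rose, and the medians were -0.58 and -0.54. Of all genes tested, 20.7% fell and 18% rose without estrogen, and 17.3% fell and 12.9% rose with it. Mrps15, as an example, fell by 1.49 and 1.22. Of 22 genes of protein import and folding, 12 and 10 fell (54.5% and 45.5%) and none rose. Timm8a1, a chaperone of the intermembrane space, fell by 1.26 and 1.21, and Timm17a, of the inner membrane translocase, by 1.26 and 0.84. Of 37 assembly factors of the complexes, a list that excludes the Ndufaf genes, 15 fell (40.5%) and 1 rose (2.7%) without estrogen and 14 fell (37.8%) with it. Nubpl, which delivers iron-sulfur clusters to complex I, fell by 1 and 1.1.

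For the mobile carriers and the synthesis of coenzyme Q, 7 of 15 genes fell (46.7%) and 2 rose (13.3%) without estrogen, beside 20.7% and 18% of all genes. With estrogen 6 fell (40%) and 1 rose (6.67%), beside 17.3% and 12.9%. Cytochrome c, Cycs, fell by 1.20 and 0.83, and Coq4 by 1.75 and 1.67, whereas Coq8a rose by 0.96 and 0.80. Of 19 citric acid cycle genes, 6 fell (31.6%) and 1 rose without estrogen, beside 20.7% and 18% of all genes, and 3 fell (15.8%) with it, beside 17.3%. Among them was Idh3a, a subunit of NAD-dependent isocitrate dehydrogenase, which fell by 1.55 and 1.1. ND5, the mitochondrially encoded complex I gene that was listed and tested, differed by -0.43 and -0.12 and was not called.

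Among 24 regulators of mitochondrial biogenesis, 12.5% rose and 20.8% fell without estrogen and 12.5% rose and 16.7% fell with it, shares close to or below those over all genes (18% and 20.7%, then 12.9% and 17.3%). Esrra, the estrogen-related receptor alpha, rose by 0.85 and 1.13, and Yy1 by 0.83 and 0.82. Tfb1m, which modifies the mitochondrial ribosomal RNA, fell by 1.76 and 1.22. Of 15 genes known as targets or components of the hypoxia response, 8 fell (53.3%) and 0 rose without estrogen. With estrogen 8 fell (53.3%) and 3 rose (20%). P4ha2 fell by 2.10 and 2.21, Pdk1, which holds pyruvate back from the citric acid cycle, by 1.97 and 1.27, and Bnip3 by 1.48 and 1.48, while Adm rose by 2.12, Ddit4 by 1.39 and Ndrg1 by 1.25 with estrogen. These lists were drawn up with earlier results of the series known.

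Markers of cumulus and granulosa cells moved between the same groups. Over 10 such genes the mean log2 value per array was 9.80 to 10.05 in intact, 9.37 to 9.52 in oocyte-free and 9.87 to 10.09 in coculture arrays without estrogen, and 10.79 to 11.01, 10.08 to 10.37 and 10.73 to 11.02 with estrogen. The corresponding ranges over 8 theca and stroma markers without estrogen were 6.79 to 6.83, 6.70 to 7.04 and 6.80 to 7.12, and with estrogen 5.98 to 6.06, 6.78 to 6.90 and 6.09 to 6.21. On removal 5 of the 10 granulosa genes fell (50%) and 2 rose (20%) without estrogen, beside 20.7% and 18% of all genes. With estrogen 4 fell (40%) and 0 rose, beside 17.3% and 12.9%. Fshr, the receptor for follicle-stimulating hormone, fell by 1.32 and 2.02, while Foxl2 and Nr5a1, which encode granulosa transcription factors, rose by 1.03 and 0.94 without estrogen, and Gja1 (0.08 and 0.08) and Amh (-0.26 and -0.28) were not called. Of 5 stroma genes tested, 1 rose (20%) and 3 fell (60%) without estrogen and 3 rose (60%) with it. Dcn rose by 4.48 and 3.39, Acta2 fell by 1.91 without and rose by 2.98 with estrogen, Ptch1 fell by 1.22 and rose by 1.02, and Gli1 fell by 1.68 without estrogen, while Col1a1, Col1a2 and the theca marker Cyp17a1 did not pass the filter on low values. The part of these shifts in the results was not tested.

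Estrogen was compared within each culture type. In intact complexes 1 member rose and 0 fell, beside 3.45% and 2.34% of all genes, and in cocultures 1 rose and 0 fell, beside 2.32% and 2.34%. In both cases the member was Cox4i2, which rose by 0.87 (SE 0.17, 1.82-fold, adjusted p = 0.00497) in intact complexes and by 0.68 (SE 0.17, 1.60-fold, adjusted p = 0.0284) in cocultures. Its intact arrays with estrogen all lay above those without, and in oocyte-free complexes its difference was -0.04. The call in cocultures was lost on leaving out either of the coculture arrays of replicates 1 and 3 without estrogen or 1 and 2 with estrogen, with adjusted p up to 0.151. Among all members in cocultures the count was 0 on leaving out replicate 3 without or replicate 2 with estrogen, and 4 without replicate 1 of the cocultures lacking estrogen. In intact complexes it was 3 and 2 on leaving out the coculture arrays of replicates 1 and 2 without estrogen.

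In oocyte-free complexes estrogen was followed by 12 falls and 2 rises, beside 3.62% and 6.03% of all genes. With arrays centred on their medians the split was 12 falls and 0 rises. Atp5l, subunit g of the ATP synthase membrane part, read 10.14, 10.26 and 9.67 without and 8.62, 9.26 and 9.19 with estrogen, with no overlap, and fell by 1.00 (SE 0.22, 2-fold, adjusted p = 0.00823). Cox7a1 fell by 1.38 (SE 0.35, adjusted p = 0.0175), Uqcr11 by 0.90 (SE 0.24, adjusted p = 0.0258) and Ndufb2 by 0.89 (SE 0.24, adjusted p = 0.0254), while Cox7c, on its dim probe set, and Atp5c1 rose by 0.83 and 0.50. Sdha fell by 0.54 (SE 0.16, adjusted p = 0.0461), a call lost on leaving out any of 15 of the 18 arrays and over the mean of its probe sets (0.03). Single calls were lost too: without the array with conflicting labels the adjusted p was 0.06 for Atp5l, 0.0558 for Cox7a1, 0.162 for Uqcr11, 0.118 for Ndufb2 and 0.222 for Atp5c1, and without the oocyte-free array of replicate 2 with estrogen it was 0.068 for Cox7c. These counts rest on few arrays: 1 member was called without the array with conflicting labels (oocyte-free, estrogen, replicate 1), 3 without replicate 2 and 8 without replicate 1 of the oocyte-free arrays lacking estrogen, 0 with array series as a term, and 4, all of them falls, without the 2 doubted arrays named above. Within the array series that holds 1 oocyte-free array with and 2 without estrogen, 70 of the 88 members were lower with estrogen, with a median difference of -0.34, and Atp5l differed by -1.01. The count over all genes within that series is not given.

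Averaged over the 3 culture types, a comparison that was added after the values were seen, 27 members fell with estrogen and 3 rose, beside 10.5% and 12.3% of all genes. In complex I the falls took in 12 of 27 accessory genes, 0 of 6 core genes and 2 of 8 assembly factors. They took in 0 of 4 genes in complex II and 2 of 8 in complex III. In complex IV they numbered 6 of 18 and in complex V 5 of 17. Ndufaf2 was among the assembly factors that fell, with values of -0.90 to -0.67 when single arrays were left out. Cox7a1 fell by 1.14 (SE 0.20, 2.21-fold, adjusted p = 0.000619), Atp5l by 0.73 (SE 0.13, adjusted p = 0.000562), Ndufa4 by 0.59 (SE 0.10, adjusted p = 0.000681) and Cox6c by 0.51 (SE 0.10, adjusted p = 0.00135). The 3 that rose were Cox4i2 (0.50, SE 0.10, adjusted p = 0.00197), Cox7c (0.50, SE 0.13, adjusted p = 0.0094) and Atp5c1 (0.39, SE 0.09, adjusted p = 0.0038). Ndufa4l2 differed by 0.65 (SE 0.28, adjusted p = 0.0933). Of the hypoxia list 8 of 15 genes rose in this comparison (53.3%, beside 12.3% of all genes) and 1 fell (6.67%, beside 10.5%). Epas1, a hypoxia-inducible factor subunit, rose by 1.40 and P4ha2 by 1.22. Moving the array with conflicting labels to the group without estrogen left 2 rises and 2 falls among the members.

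**Figure D5:**
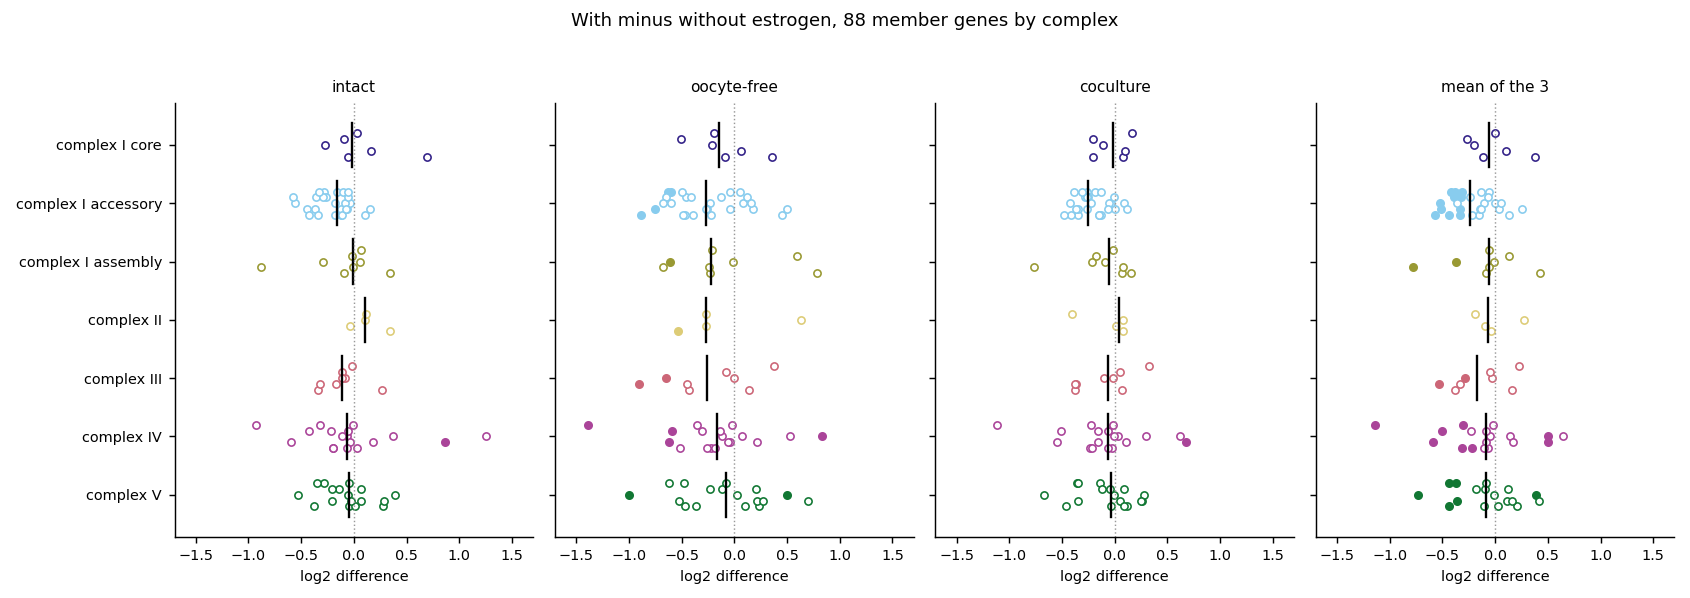
Log2 difference with minus without estrogen for each of the 88 tested members (points), by complex, in intact, oocyte-free and coculture groups and averaged over the 3. Filled points passed an adjusted p of 0.05, open points did not, and black bars are medians; most filled points in the oocyte-free panel and in the mean lie to the left of 0.

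Whether oocyte removal acted differently with and without estrogen was tested as an interaction. Of the members, 1 was called, Sdha at -0.88 (SE 0.23, adjusted p = 0.044), beside 1.42% of all genes called lower, and none was called higher, beside 1.79%. That call was lost on leaving out any of 14 of the 18 arrays and over the mean of its probe sets (-0.32, adjusted p = 0.444). For the addition of oocytes, 0 members were called by limma, beside 0.89% of all genes called higher and 1.89% called lower, and 5 had an unadjusted p under 0.05.

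Bright members differed less. The 31 tested members with a mean of 12 or more had a median difference of -0.17 on removal without estrogen, with 6 called, and the other 57 had -0.38, with 26 called. With estrogen the medians were -0.29 and -0.51, with 11 and 26 called, and the part of brightness in these results was not tested. Of the 32 members called without estrogen, 14 had a further probe set above the array median on at least 3 arrays, and in 11 of these all such sets had the same sign, the exceptions being Atp5c1, Ndufab1 and Sdha. With estrogen it was 19 of 21, the exceptions being Atp5c1 and Ndufab1. On addition it was 6 of 10 without estrogen (exceptions Atp5c1, Ndufa12, Ndufab1 and Sdha) and 10 of 13 with it (exceptions Atp5c1, Atp5g2 and Ndufab1). For estrogen in oocyte-free complexes it was 5 of 8, the exceptions being Cox6c, Sdha and Uqcrq.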

How the data were processed

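Expression was measured on 18 single-colour Affymetrix arrays, 3 in each of 6 groups given by sample title. The deposited values are log2 signals that, per the submitters' processing notes, the authors made by RMA (Affymetrix Expression Console 1.1), and RNA was amplified in rounds from small samples, per the labels' protocols. Array medians still differed (5.51 to 5.71), and centring them was tried as an alternative. Arrays give no count depth, and their number limits the precision.

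Of 45101 probe sets, 64 were controls, 34945 carried 1 symbol, 932 several and 9160 none that is listed. Each gene took its probe set of highest mean. Genes above the array median on at least 3 of 18 arrays were kept, which left 12246 of 18193. One model of 6 group means was fitted with limma 3.58.1 in R 4.3.3, without a replicate term, with eBayes and Benjamini-Hochberg adjustment over all genes tested, and was tested on simulated data. All adjusted p-values are from limma unless an exact permutation test is named.

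Genes named with values were drawn, for each comparison, from called members whose arrays did not overlap. Up to 8 with the largest rise and 8 with the largest fall were eligible. Added to these were all of complex II, the isoform pairs compared within arrays, called interactions and, for other lists, up to 4 called genes. Not every gene that the rule allows is named. Genes named outside this rule were chosen after their values were seen. Members and lists were chosen with earlier results of these data known. Title numbers run through the 6 groups in turn for each replicate, so every comparison has arrays matched by replicate. Only for cocultures against intact complexes with estrogen did matched arrays deviate together in every replicate (r of 0.165, 0.294 and 0.309). There the replicate block changed no call. For oocyte removal with estrogen r was 0.208, 0.371 and -0.011.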

Additional observations from a re-analysis of the deposited data

Results flagged for a closer look

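Sdha was the member for which the response to oocyte removal differed between estrogen states by the interaction test. The change with estrogen minus the change without was -0.88 (SE 0.23, limma adjusted p = 0.044), from a rise of 0.80 without estrogen, with all 3 oocyte-free arrays above all 3 intact arrays, and a difference of -0.08 with estrogen, where the arrays overlapped. The call was kept on leaving out replicate 3 of either oocyte-free group or replicate 2 of the intact complexes or cocultures without estrogen, and was lost on leaving out any of the other 14 arrays. Over all 18 arrays left out in turn, the adjusted p lay between 0.00749 and 0.133. A second probe set of the gene differed by -0.16 and -0.11 on removal.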

How the results depend on the processing

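Counts of members called are given against 32 and 37 on removal without and with estrogen, 25 and 24 on addition, 1, 14 and 1 for estrogen in intact, oocyte-free and coculture groups, 1 and 0 for the interactions with removal and addition, and 30 for estrogen averaged. With array series as a term they were 20 on removal without estrogen, 16 on addition without estrogen, 3 for estrogen in intact and 0 in oocyte-free complexes, 1 for the interaction with addition and 14 averaged. With only the groups compared they were 14 on addition in both states, 9, 1 and 0 for estrogen in the 3 culture types and 0 for the interaction with removal. With array weights they were 15, 32 and 11 for estrogen in the 3 culture types and 4 and 3 for the interactions. Centred arrays gave 13 on addition with estrogen, 2 for estrogen in intact complexes and 0 in cocultures. The largest array series alone gave 11 on addition with estrogen and 9 for estrogen in intact complexes. For estrogen in intact complexes the mean of probe sets gave 3 and a trended, robust prior 2. With the array of conflicting labels moved, estrogen gave 0 in oocyte-free complexes, 4 averaged and 0 for the interaction with removal. Without both doubted oocyte-free arrays, an alternative added after the data were seen, estrogen gave 2, 4 and 2 in the 3 culture types and the interaction with removal 0. The causes were not tested.

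Leaving out each array in turn gave 25 to 34 and 28 to 41 on removal, 16 to 27 and 14 to 25 on addition, 1 to 3, 1 to 17 and 0 to 4 for estrogen in the 3 culture types, 0 to 2 and 0 to 1 for the interactions and 22 to 37 averaged. The replicate block is a term for the replicate as read from the title numbers. It gave 31 and 36 on removal, 23 and 23 on addition, 1, 11 and 1 for estrogen, 0 and 0 for the interactions and 29 averaged. For cocultures against intact complexes 0 members were called by limma in all of these settings that could be run, and 2 and 4 members had an unadjusted p under 0.05. Over the mean of probe sets 2 named results turned sign, Atp5c1 on addition without estrogen (-0.20) and Sdha for estrogen in oocyte-free complexes (0.03). Of 72 named results, 28 kept their call in every alternative, among them the falls of Ndufa4l2 and Atp5g1 on removal in both states. Removal without estrogen could not be fitted within one array series.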
